A study of Mus musculus with 149 samples.

Results

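Hepatocytes with a high share of spike-in RNA were compared with hepatocytes with a low share, all captured on the large chip of a single-cell study of mouse liver. The spike-in is the ERCC mix, a panel of synthetic RNAs that was part of the lysis reagent for every cell, so its share of the summed values is large where a cell contributed little RNA of its own. The cells were chosen by that measured share: 16 of the 80 large-chip cells had a share of 50% or more (high spike-in cells) and 64 had a share under 50% (low spike-in cells). The series held 149 cells in all, from 3 chips. All cells came from 1 untreated wildtype male C57BL/6 mouse of 8 weeks. Its liver was dissociated by a 2-step perfusion, hepatocytes were enriched by repeated low-speed spins, and cells were caught on Fluidigm C1 microfluidic chips with traps of 17 to 25 µm (large), 10 to 17 µm (medium) or 5 to 10 µm (small). Because 1 mouse supplied every cell, cells are not biological replicates, each group counts as 1 sample, and no test was run. Every difference below is a size and a spread over cells. The labels do not say what set the share of a cell, and a cell that held less RNA and a cell whose RNA was recovered less well cannot be told apart.

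Hepatocytes are the secretory and metabolic cells of the liver. They make albumin, transferrin, fibrinogen and apolipoproteins for the blood, and in male mice the major urinary proteins, pheromone carriers encoded by a cluster of near-identical genes. Their enzyme content depends on position along the liver lobule: cells near the central vein (pericentral) express Cyp2e1 and Glul, and cells near the portal vein (periportal) express Cyp2f2 and Hal. The endoplasmic reticulum, where secreted proteins are made and folded, and the mitochondria, which carry their own ribosomes and genome, are abundant in these cells.

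The spike-in share left gaps between the cells. In 57 of the 64 low cells the share ran from 1.24% to 6.69%, in the other 7 it ran from 28.6% to 41%, and in the 16 high cells it ran from 52.4% to 92.3% with a median of 77.7%. The share chose the groups, so this is a description of the choice. The 3 cells just outside the limit (36%, 40.8% and 41%) and the 3 just inside it (52.4%, 55.1% and 60.4%) had 6626, 6565 and 5269 against 5393, 2020 and 3232 genes with a value above 0. Over all cells, mouse genes above 0 numbered 1371 at the lowest, 2953 at the median and 5393 at the highest in the high cells, and 2350, 7543 and 8819 in the low cells. The groups overlapped in this measure through the 7 low cells of intermediate share (2350 to 6846 genes), while the 57 cells with a share under 10% lay between 5711 and 8819, above every high cell. The summed deposited values, spike-ins included, were 3724750 to 5597783 in the high cells and 1464731 to 1879497 in the 57 cells, but 5171764 to 5628710 in the intermediate 7. The sums of the 57 cells thus differed from those of all cells with a larger share, and what the deposited normalisation did to them is not described. Read depth was not in the table, so the numbers of genes above 0 could not be matched for depth.

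**Figure D1:**
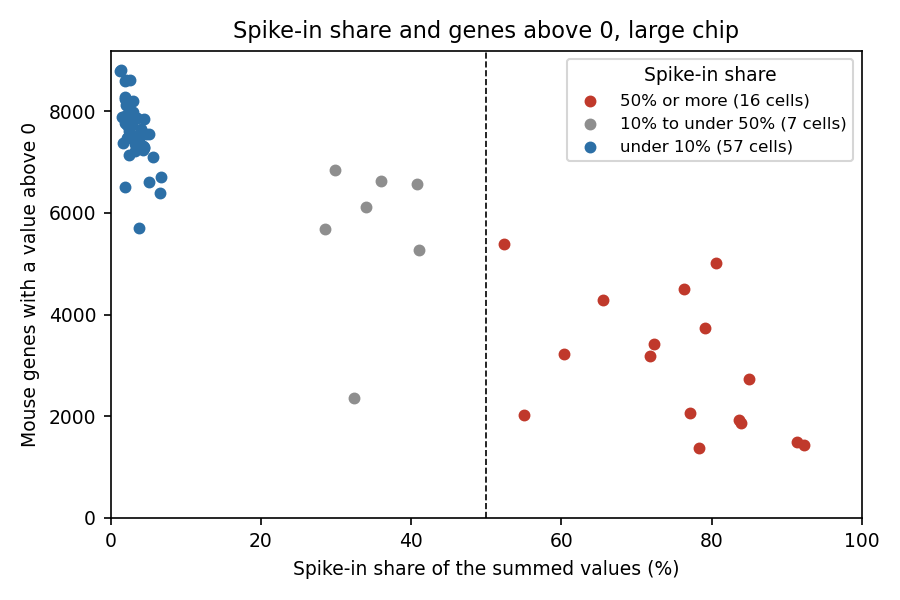
Number of mouse genes with a value above 0 (vertical axis) against the spike-in share of the summed values in percent (horizontal axis) for the 80 large-chip cells, 1 point per cell; the dashed line is the limit of 50%. The 57 cells under 10% form a block at 5711 to 8819 genes, and the 16 cells at 50% or more lie between 1371 and 5393.

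The label of the cells, isolated primary hepatocytes, was checked against markers, with levels in ppm, parts per 1000000 of the summed mouse values of a cell. All 12 defining hepatocyte genes passed the filter on low values, and their summed level was 32912 to 73836 ppm in the high cells and 7854 to 109981 ppm in the low cells. Markers of another cell type (at least 3 of a list at 50 ppm or more) were found in 1 high cell and 8 low cells. The high cell, at a share of 52.4%, held 13 of 15 endothelial markers, and 2 of the intermediate low cells held 15 of 15. The summed endothelial level had a median of 0 in the high cells (highest 30068 ppm) and of 1.05 in the low cells (highest 36449). Kupffer cell and stellate cell markers summed to at most 121 and 4.04 ppm in the high cells. Each large-chip cell also carried 1 of 2 ranges of a number in its description, whose meaning the labels do not give: 10 of 42 cells of range 1 and 6 of 38 of range 2 were high spike-in cells.

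Each cell was rescaled to a sum of 1000000 over the mouse genes, so a value in ppm is a share of the mouse RNA signal of that cell and not an amount of RNA. Of 20308 mouse genes, 4438 had a mean of at least 10 ppm over both groups. By the ratio of group means, 60 of these (1.35%) were at least 2-fold higher in the high cells and 1241 (28%) at least 2-fold lower, also without the top cell of the higher group. By the ratio of group medians, 23 (0.518%) were higher and 2892 (65.2%) lower. A stricter description counted the pairs of 1 high and 1 low cell, with ties shared equally between the groups. In at least 90% of the pairs, 2 genes (0.0451%) were higher in the high cell and 449 (10.1%) were lower. The median log2 ratio over all 4438 genes was -0.46 by means and -1.32 by medians, so most genes took a smaller share of the signal in the high cells while a few took more. This split depended on the scaling. With each cell scaled by the median of ratios over genes seen in most cells, the median of all genes was 0.76 higher on the log2 scale than with the plain sum, and 382 genes were higher and 612 lower by means. Ratios of the pooled deposited values, with no condition on the top cell, gave 614 higher and 1496 lower.

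The 2 genes higher in at least 90% of pairs were Gm20594 and Lars2. Gm20594 (GRCm38, chr6:79817916-79818364, plus strand, 1 exon, annotated as protein coding) is also listed by RefSeq as Mtrnr2l, a nuclear gene named for its likeness to the mitochondrial 16S ribosomal RNA gene mt-Rnr2. Its transcript of 449 bases was aligned with mt-Rnr2 (1582 bases): 388 bases were identical, 41 were mismatched and 10 lay in gaps, an identity of 88.4%. The longest identical run was 65 bases. Of 20182 genes of the table with a transcript to search, no other shared an identical run of 40 bases or more with a mitochondrial transcript. The coding part of Gm20594 (chr6:79818251-79818361) and the matching stretch of mt-Rnr2 (chrM:2070-2180) are printed because reads from either could be assigned to this row. They are given from 5′ to 3′ on the plus strand of GRCm38, and capitals mark the identical run.
Gm20594 coding part: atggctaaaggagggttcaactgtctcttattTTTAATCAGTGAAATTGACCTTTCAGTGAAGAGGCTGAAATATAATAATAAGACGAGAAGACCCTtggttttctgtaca
mt-Rnr2 stretch: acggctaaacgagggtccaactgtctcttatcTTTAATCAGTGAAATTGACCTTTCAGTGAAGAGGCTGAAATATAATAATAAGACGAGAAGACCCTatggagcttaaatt
Over these 111 bases, 96 were identical without gaps. The mitochondrially encoded genes themselves were not analysed here, so signal from Gm20594 and from mt-Rnr2 cannot be told apart in these values.

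The level of Gm20594 was 7051 ppm at the lowest, 32753 at the median and 73887 at the highest in the high cells, against 246, 823 and 9315 in the low cells. The ranges overlapped only through the lowest high cell: 15 of the 16 high cells lay above all 64 low cells. The log2 ratio of means was 4.65, and the high cell had the higher value in 99.6% of pairs. The level followed the share in steps, with medians of 784 ppm in the cells under 10%, 7361 in the 7 intermediate cells, 22734 at 50% to under 80% and 58518 at 80% or more. Within the 16 high cells the Spearman rho between this level and the spike-in share was 0.96; both quantities contain the mouse sum of the cell, 1 as its denominator and 1 through the total. The log2 ratio was 4.83 within range 1 of the number in the description and 4.15 within range 2.

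Lars2 encodes the mitochondrial leucyl-tRNA synthetase, the enzyme that charges leucine tRNA for protein synthesis inside mitochondria (chr9, plus strand). Its level was 363, 2921 and 15265 ppm at the lowest, median and highest of the high cells, against 104, 248 and 9943 in the low cells. The groups overlapped more than for Gm20594, since 3 of 16 high cells were above every low cell, but all 16 were above the low median. The log2 ratio of means was 3.14 and the pair share 95.6%. It was 2.62 within range 1 and 3.82 within range 2. Within the 16 high cells its rho with the share was 0.26, against 0.96 for Gm20594. Its longest identical run with a mitochondrial transcript was 14 bases.

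Both genes had the same direction in cells the split had not used. In the medium chip, 23 cells had a share of 50% or more and 7 had less. There the median of Gm20594 was 32174 against 1575 ppm (pair share 82.0%) and that of Lars2 2172 against 262 (85.1%). In the small chip, with 27 cells against 12, the medians were 30008 against 1954 (96.9%) for Gm20594 and 6933 against 1288 (97.2%) for Lars2. Over all genes, 288 (5.75%) were at least 2-fold higher by means in high cells of the medium chip, as were 143 (2.94%) on the small chip. These cells came from the same mouse.

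**Figure D2:**
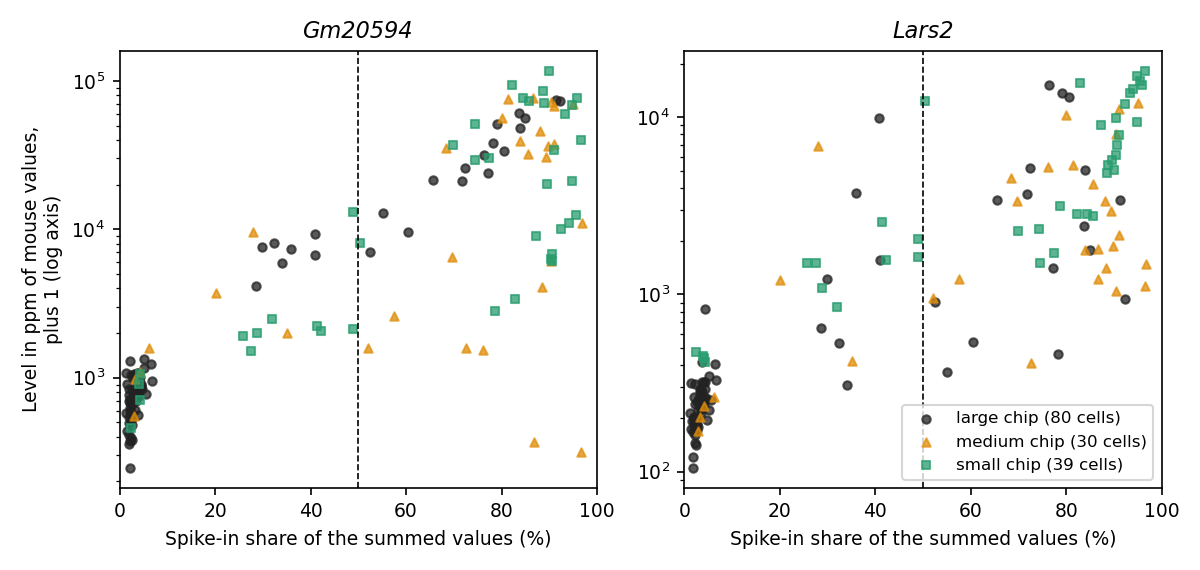
Level of Gm20594 (left) and Lars2 (right) in ppm of mouse values plus 1, on a log axis, against the spike-in share in percent, 1 point per cell of the large (80), medium (30) and small (39) chips; the dashed line is the limit of 50%. In the large chip Gm20594 goes from a median of 784 ppm under 10% to 58518 at 80% or more, and Lars2 from 225 to 2927.

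Values were also expressed against the spike-in in place of the mouse sum. On this scale Gm20594 varied least over the 16 high cells, among the tested genes above 0 in all of them. This scale uses the quantity that chose the groups, so the difference between the groups is a description. Relative to 1000000 of spike-in signal, all mouse genes together had a median 104-fold higher in the low than in the high cells, Alb 105-fold, Fabp1 66.8-fold, Sdc4 786-fold and Ptp4a1 1646-fold. For Lars2 the ratio was 11-fold and for Gm20594 2.27-fold. Among 2022 tested genes with a high-cell median above 0, 5 had a smaller ratio than Gm20594. In the low cells Gm20594 ran from 9764 to 80292 per 1000000 of spike-in signal. Across the 16 high cells it ran from 6125 to 13468, a 2.20-fold range. The sum of all mouse genes had a 10.9-fold range over the same cells, and of the 237 tested genes above 0 in all 16 cells the next narrowest was Serpina3k, a serine protease inhibitor of plasma, at 8.28-fold.

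Of the 449 genes lower in at least 90% of pairs, a few are described here. Those near 0 in the high cells passed the filter on the mean of both groups through their low cells. Their direction is therefore partly set by that filter. Ptp4a1, a prenylated tyrosine phosphatase, was at 18.4, 110 and 200 ppm at the lowest, median and highest of the high cells and at 4.88, 1698 and 6505 in the low cells. All 16 high cells lay below the low median, and the log2 ratio of means was -3.78. Sdc4, the cell surface proteoglycan syndecan-4, had medians of 147 against 1519 ppm (log2 ratio -2.80), again with all 16 high cells below the low median. The tetraspanin gene Tspan31 had medians of 3.58 against 236 (-3.89) and a value of 0 in 7 of the 16 high cells. Across the 2 ranges of the description number the ratios were -3.96 and -3.53 for Ptp4a1, -2.83 and -2.69 for Sdc4, and -3.88 and -3.78 for Tspan31.

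Other transcripts in this class separated the cells nearly completely. Akr1a1, the aldehyde reductase of the vitamin C pathway, ran from 0 to 291 ppm in the high cells and from 123 to 803 in the low cells, and 15 of 16 high cells lay below every low cell. Sec11a, a catalytic subunit of the signal peptidase, had a median of 0 against 85.8 ppm and a pair share of 0.684%. Manf, a secreted stress protein of the endoplasmic reticulum, was above 0 in 4 of 16 high cells and 63 of 64 low cells (pair share 1.76%). Acadl, the long-chain acyl-CoA dehydrogenase, had medians of 1.70 against 116 ppm (pair share 1.46%). Prdx1, a peroxiredoxin that removes hydrogen peroxide, was still present in every high cell, at 119, 292 and 3291 ppm against 911, 2493 and 4173; 12 of the 16 high cells lay below all low cells. Among the 449 genes were also Hspd1 and Hspa8, chaperones of mitochondria and cytosol, with medians of 18.3 against 334 and 97.3 against 999 ppm.

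**Figure D3:**
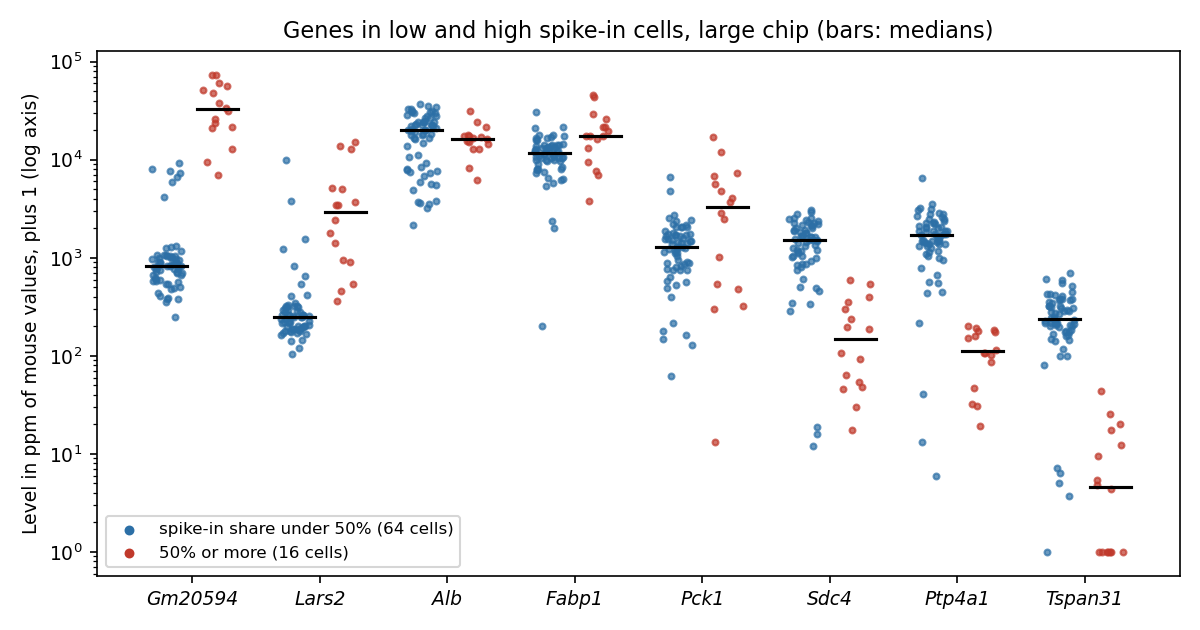
Level in ppm of mouse values plus 1, on a log axis, of 8 genes in the 64 low (blue) and 16 high (red) spike-in cells of the large chip, 1 point per cell with bars at the medians. Gm20594 and Lars2 are higher in the high cells (medians 32753 against 823 and 2921 against 248), Alb and Fabp1 overlap widely, and Sdc4, Ptp4a1 and Tspan31 are lower.

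The 7 cells of intermediate share divided the 449 genes. The 449 were chosen against the low group, which held both these 7 cells and the 57 cells under 10%. Differences below between the 449 and all tested genes are therefore partly set by that choice and are a description only. With 10 ppm added to both medians, 280 of them (62.4%) were at 50% or less of the level of the 57 cells under 10%, against 35.7% of all tested genes, and 169 were above that. Akr1a1 belonged to the 169: its median was 397 ppm in the intermediate cells, 403 in the cells under 10% and 12.8 in the high cells. Acadl (130, 112 and 1.70) and Mrps18c (120, 68.7 and 0), a protein of the mitochondrial ribosome, were not lower in the intermediate cells either. Other genes were already low in the intermediate cells. Ptp4a1 was at 217 ppm there against 1756 in the cells under 10%. Hsd3b5, a male-typical steroid reductase of the liver, was at 1.28 against 250, Lcat, the plasma enzyme that esterifies cholesterol, at 5.45 against 250, and Mup8 at 29.5 against 1307. Of the 449 genes, 51 (11.4%) were also lower in at least 90% of pairs of an intermediate cell and a cell under 10%, against 4.55% of all tested genes. In the other direction, 24 of the 4438 tested genes were higher in the intermediate cells in at least 90% of such pairs. Gm20594 (100% of pairs) and Lars2 (97.0%) were among them, but Lars2 did not lead. Rpl36 (100%), Tnfrsf10b (99.2%) and Psg28 (98.7%) were above it. The 24 also included ribosomal protein genes that were low in the high cells. Rpl7 had medians of 310.4 ppm under 10%, 811 in the intermediate and 26.2 in the high cells, and Rps15 58.2, 276 and 24.5. Of the 7 intermediate cells, 2 held 15 of 15 endothelial markers, and 2 others held 4 and 3 of 9 bile duct markers at 50 ppm or more. The part of these cells in the values was not tested.

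Among the main secreted products, albumin had overlapping shares of the mouse signal in both groups, and the summed plasma proteins had a lower median in the high cells. Alb was at 6247, 16461 and 31558 ppm at the lowest, median and highest of the high cells and at 2183, 20172 and 36987 in the low cells; the high range lay inside the low range (log2 ratio of means -0.17). Fabp1, the fatty acid binding protein of the hepatocyte cytosol, had medians of 17446 against 11684 (log2 ratio 0.76). Ttr, the carrier of thyroxine and retinol, was at 6566 against 11198 (-0.70), Apoa1, the main protein of high-density lipoprotein, at 5386 against 10141 (-0.97), and Fgb, the beta chain of fibrinogen, at 5532 against 12316 (-0.80). With scaling by the median of ratios, which raised the median log2 ratio of all genes, these ratios were 1.61 for Alb, 1.31 for Ttr, 0.73 for Apoa1 and 1.30 for Fgb. Relative to the median of all genes, which was -0.46 with the plain sum and 0.30 with this scaling, Ttr, Apoa1 and Fgb were thus below it with the first and above it with the second, and Alb was above it with both. Of 37 plasma protein genes, 1 was higher by means (1.35% of all genes) and 3 lower (28% of all genes), none was in the 449, and 12 were lower by medians (65.2% of all genes). The list median was 0.28 above that of all genes on the log2 scale. That difference was -0.048 without rescaling and between 0.14 and 1.32 under the other scalings. The summed plasma protein level was 61400, 124877 and 169546 ppm in the high cells against 18947, 169850 and 221305, and no high cell was above the low median. Apoa5, a regulator of triglyceride-rich lipoproteins, was the gene higher by means, at medians of 509 against 374 ppm, with 6 of the 16 high cells above all low cells.

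The major urinary protein genes together took 92542, 378171 and 724873 ppm in the high cells and 33242, 363364 and 731367 in the low cells, so the groups overlapped fully. Reads of these near-identical copies may be split between them, and single members are uncertain. Mup14 had medians of 71720 against 50401 ppm (log2 ratio 0.65) and Mup7 66000 against 57882 (0.27). Mup1 was higher, at 10241 against 4580 (1.32). Mup8 was lower, with a median of 0 against 1195 and 9 of 16 high cells below all low cells (-2.86). Mup8 remained lower under each scaling tried, with a smallest ratio of -0.47 under the median of ratios.

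The transcripts of the protein synthesis machinery gave different answers by means and by medians. Of 82 genes of the cytosolic ribosome, 78 were tested. The summed level of all 82 was 7460, 15534 and 47073 ppm in the high cells against 5552, 10738 and 50639 in the low cells. For this sum, 15 of 16 high cells were above the low median. The list median of the log2 ratio of means was 0.85 above that of all genes, but that of the log2 ratio of medians was 0.43 below it (6 genes higher and 7 lower by means, 1 higher and 59 lower by medians). Single members differed in direction. Rpl10 had medians of 722 against 332 ppm with values from 9.28 to 5146 in the high cells, while Rpl21 had medians of 14.5 against 121 and a pair share of 3.32%. Which genes made up the sum in each cell was not tested. Reads of ribosomal protein genes may also be shared with their many processed copies. Of 58 genes of the mitochondrial ribosome, 0 were higher and 19 (32.8%) lower by means, near the 28% of all genes, and 13 (22.4%) were in the 449, which held 10.1% of all genes. Their list median was 0.21 below that of all genes, and it was below it under each scaling tried. The proteasome list had 34 tested genes, of which 0 were higher and 12 (35.3%) lower by means, against 28% of all genes, and 10 (29.4%) were in the 449, against 10.1%. Its list median minus that of all genes was -0.054 by means and -1.09 by medians. One of them, Psmc5, an ATPase of the proteasome cap, had a median of 0 against 74.9 ppm and a log2 ratio of means of -3.07.

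Genes of the secretory pathway were mixed. Of 23 genes for translocation into the endoplasmic reticulum, 4 (17.4%) were lower by means, a smaller share than the 28% of all genes, and the list median was 0.39 above that of all genes. By medians 19 (82.6%) were lower, against 65.2% of all genes, and the list median was 0.92 below. The 4 were Sec11a, Ssr3 (medians 32 against 483 ppm), Sec61a1 (2.40 against 48.5) and Tram1 (20.8 against 432). Of 19 folding and stress genes of that compartment 8 (42.1%) were lower by means, against 28% of all genes, and 0 higher, against 1.35%; the list median was 0.14 below that of all genes. Pdia3, a disulfide isomerase, had medians of 24 against 347 ppm, and 5 of 16 high cells lay below all low cells. Canx, the lectin chaperone calnexin, had medians of 240 against 1870.

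No gene of the immediate early and stress lists was at least 2-fold higher by means in the high cells of the large chip, a direction that held 1.35% of all genes. Of 17 tested immediate early genes, which respond quickly to stimuli such as tissue dissociation, 0 were higher and 8 (47.1%) lower by means, against 28% of all genes. By medians 0 were higher and 12 (70.6%) lower, the latter near the 65.2% of all genes. Of the 17, 0 were in the 449, which held 10.1% of all genes. The summed level of all 23 listed was 33.4, 846 and 9078 ppm against 52.3, 2020 and 7982. Fos had medians of 23.9 against 367 ppm, but its log2 ratio of means was only -0.69, because 1 high cell at 2972 ppm, the one with endothelial markers, held 76.6% of the high sum. Without the 3 cells rich in endothelial markers the ratio was -2.42. With all cells it was -2.92 within range 1 of the description number and 0.34 within range 2. In the large chip, the list median by means was 0.23 below that of all genes. It was 1.44 above that of all genes in medium-chip cells and 1.34 below in small-chip cells, so the 3 chips did not share a direction. Lower by means were 5 of 13 chaperone genes of the heat shock list (38.5%), 4 of 6 p53 and apoptosis genes (66.7%) and 2 of 13 oxidative and metal stress genes (15.4%), the last under the 28% of all genes. Trp53inp1, a p53-induced nuclear protein gene, had medians of 20.0 against 259 ppm (log2 ratio -2.84). The metallothionein gene Mt1 had medians of 184 against 441 ppm (-0.55).

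**Figure D4:**
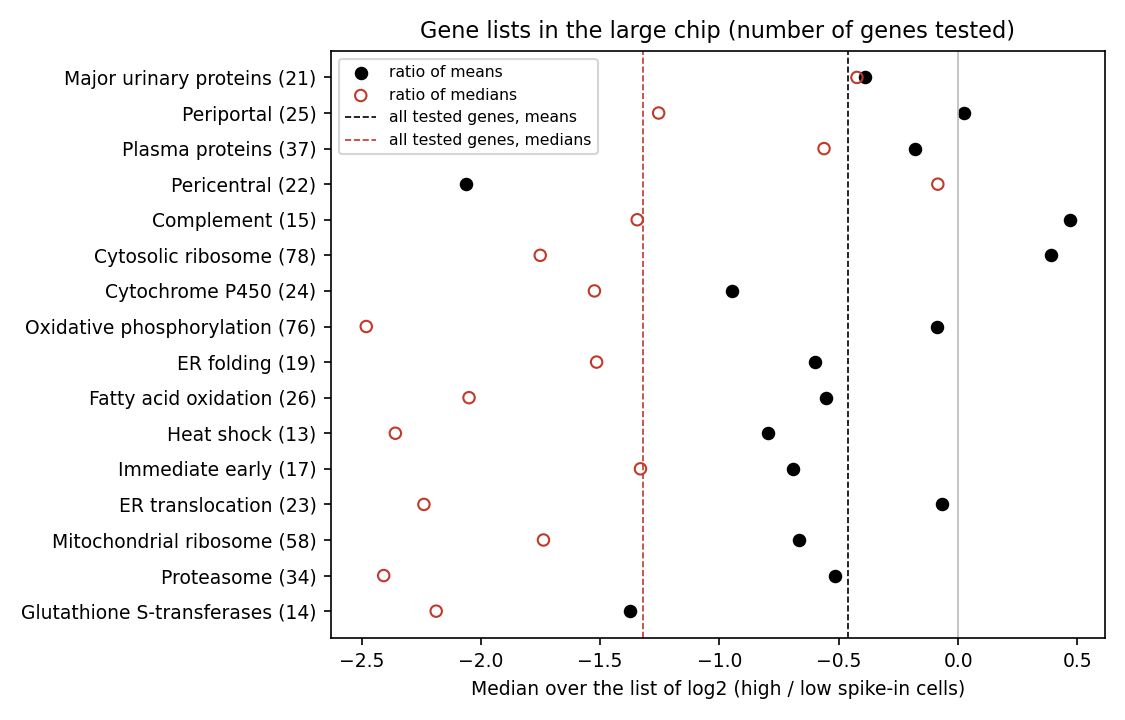
Median over each gene list of the log2 ratio of high to low spike-in cells of the large chip, by group means (filled points) and by group medians (open points); dashed lines give the same medians over all 4438 genes, and numbers in brackets are genes tested. The pericentral list is at -2.06 by means and -0.085 by medians, and the cytosolic ribosome list at 0.39 and -1.75, on opposite sides of the lines for all genes.

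The zonation landmarks opposed each other more sharply in the low than in the high cells. The log2 ratio of Cyp2e1 to Cyp2f2, with 10 ppm added to each, ran from -8.21 to 10.2 in the low cells with an SD over cells of 7.36, and from -7.54 to 3.84 in the high cells with an SD of 3.40. In the low cells 22 of 64 lay at 3 or more, 35 at -3 or less and 7 between; in the high cells 1 of 16 lay at 3 or more, 9 at -3 or less and 6 between. The 1 high cell at 3 or more, at 3.84, was the cell with 13 of 15 endothelial markers; the highest of the other 15 was at 2.07, and their SD was 2.94. Cyp2e1 was at 1000 ppm or more in 24 of 64 low cells and in 1 of 16 high cells, again the cell with endothelial markers (2918 ppm), without which the highest was 926. Its medians were close, at 50.4 against 78.4 ppm in the high cells, so the log2 ratio of means was -3.16 and that of medians 0.55. Without the 3 cells rich in endothelial markers the ratio of means was -4.26. Cyp2f2 was under 100 ppm in 23 of 64 low cells and in 1 of 16 high cells. Both landmarks were above 0 in every cell of both groups. The lowest values were 7.22 ppm in the high and 2.20 in the low cells for Cyp2e1, and 32.4 and 0.192 for Cyp2f2.

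**Figure D5:**
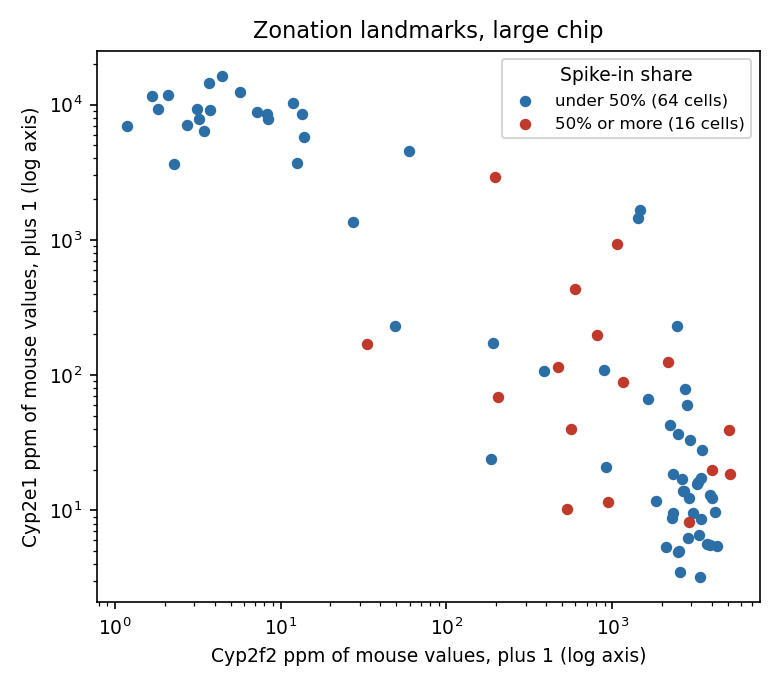
Cyp2e1 against Cyp2f2 in ppm of mouse values plus 1, both on log axes, in the 64 low (blue) and 16 high (red) spike-in cells of the large chip, 1 point per cell. Most low cells lie in 1 of 2 opposite corners, and the 1 of 16 high cells with Cyp2e1 at 1000 ppm or more is the cell with 13 of 15 endothelial markers.

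Other pericentral genes had the same form. Of 22 tested, 0 were higher and 17 (77.3%) lower by means, against 28% of all genes. By medians 3 were higher and 5 (22.7%) lower, against 0.518% and 65.2% of all genes. The list median was 1.60 below that of all genes by means and 1.24 above it by medians. The second value was not a rise, since the list itself was at -0.085 by medians and all genes were at -1.32. With the pseudocount of 10 ppm, a gene with low medians in both groups stays near a ratio of 0. Cyp2c29, a P450 enzyme, was above 0 in all 16 high cells, at 5.51, 30.9 and 360 ppm, against 0, 2.29 and 8713 in the low cells. All 16 high cells lay above the low median and none reached the top of the low range. In the major urinary protein list, which is not part of the pericentral list, Mup17 was at 14.6, 1210 and 14897 ppm against 0, 51.1 and 85168, and Mup15 at 117, 7239 and 81662 against 0, 652 and 77602, with 26 low cells at 0 for Mup15. Oat, the ornithine aminotransferase of the pericentral rim, was at most 32.9 ppm in the high cells and 3664 in the low cells. Glul, the glutamine synthetase of the innermost pericentral cells, was above 0 in 5 of 16 high cells and at most 70.1 ppm, against 2830 at the highest low cell. The Cyp2c and Mup families hold near-identical copies, so their single members are uncertain. Of 25 tested periportal genes 1 (4%) was higher and 5 (20%) lower by means, against 1.35% and 28% of all genes. The summed level of all 26 listed was 24338, 39188 and 59616 ppm in the high cells against 8444, 48142 and 68964.

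Among metabolic genes a few were higher in the high cells. Pck1, an enzyme of gluconeogenesis and the 1 periportal gene that was higher, was at 12.2, 3303 and 17077 ppm against 60.8, 1289 and 6691 (log2 ratio 1.63). For it, 4 high cells lay above all low cells and 1 below them. Gnmt, which consumes S-adenosylmethionine, had medians of 1362 against 567 ppm (1.38), but 211 in the 6 cells with a share of 80% or more. Of 14 glutathione transferase genes 0 were higher and 9 (64.3%) lower by means, against 28% of all genes, and 3 (21.4%) were in the 449, against 10.1%. Gstt1 had medians of 4.40 against 127 ppm and Gsta4 of 0 against 80.9. That list median was 0.92 below that of all genes and stayed below it under each scaling tried. Of 24 cytochrome P450 genes 0 were higher and 11 (45.8%) lower by means. By medians 3 were higher and 15 (62.5%) lower, against 0.518% and 65.2% of all genes. Of 26 genes of fatty acid oxidation 2 (7.69%) were higher and 9 (34.6%) lower by means, the latter near the 28% of all genes. Of 76 genes of oxidative phosphorylation 3 (3.95%) were higher and 14 (18.4%) lower by means, the latter under the 28%. Within that last group Ndufs6, a complex I subunit, had medians of 246 against 119 ppm with 5 high cells above all low cells and 4 below them, while Ndufs5, another complex I subunit, had medians of 0.859 against 69. The transcription factor gene Hnf4a, a main regulator of hepatocyte identity, had a high-cell mean of 345 ppm against 75.4 but a median of 19.8 against 68.9, with 4 high cells above and 3 below all low cells. Nr1h4, the bile acid receptor gene, had medians of 0 against 72.4.

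That spread was the rule among genes higher by means. Of the 60, 33 had a high-cell median below the low-cell median, 11 had a high-cell median of 0, and in 14 the top cell held over 50% of the high sum. Of the 20 with the largest ratio, 5 had a higher median in the high cells. Tnks2, a tankyrase, had a log2 ratio of 3.54 with medians of 3.14 against 12.5 ppm, and 1 cell held 81.9% of its high sum. Cript, a postsynaptic scaffold binder, had a ratio of 3.50 with medians of 12.3 against 53.1, and Rer1, a retention receptor of the Golgi, 2.97 with 0.715 against 41.8. Higher by means and by medians at once were 15 genes.

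Some genes of very low level were also higher by medians. Runx2, a transcription factor gene of bone, was at 0, 15.1 and 82.2 ppm in the high cells against 0, 0.446 and 15.7, and above 0 in 14 of 16 against 45 of 64 cells. Its pair share of 87.8% was the largest after Gm20594 and Lars2 among the 23 genes higher by medians. Cplx2 (21.6 against 0.703), Emp2 (16.1 against 0.945) and Mylk4 (15.6 against 0.779) were alike. With low-cell medians this far under 10 ppm, such genes passed the filter on the mean of both groups mainly through their high cells. Their direction, pair shares and ratios to the spike-in are therefore partly set by that filter and are a description only. Relative to the spike-in, the low-cell median was 2.36-fold that of the high cells for Runx2, 3.24-fold for Emp2 and 3.53-fold for Cplx2, among the 10 smallest ratios. The 5 genes with a ratio under that of Gm20594 were Gm10408, Tgtp2, Ugt1a9, Gpc6 and Mup15, named after their values were seen. Gm10408, Tgtp2 and Ugt1a9 had a low-cell median of 0, which makes their ratio 0. Mup15 was at 0 in 26 low cells.

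The genes lower in the large chip were compared with the same split in the smaller chips. Of the 449 genes, all 449 had a pair share under 50% in medium-chip cells and 442 (98.4%) in small-chip cells, but so did 95.6% and 93.3% of all 4438 genes. By means, 739 (14.8%) of 5005 tested genes were lower in medium-chip cells and 883 (18.1%) of 4868 in small-chip cells. At least 2-fold lower by means were 147 of the 449 in medium-chip and 143 in small-chip cells. The shares of 14.8% and 18.1% cover the genes that passed the filter in each chip, a different set from the 4438. The share over the 4438 genes is not given here, so these counts have no like background and are a description only. Across genes, which are not independent, Pearson's r of the log2 ratio between the large and the medium chip was 0.15 and between the large and the small chip 0.14, over the 4438 genes. Single genes differed in size: Tspan31 was at log2 ratios of -3.89 (large), -4.05 (medium) and -2.19 (small chip), Ptp4a1 at -3.78, -1.62 and -3.08, Sdc4 at -2.80, -2.26 and -1.90, and Manf at -3.39, -0.26 and -2.24. Relative to the median of all genes in each chip (-0.46, -0.25 and -0.59), the proteasome list median was -0.054, -1.07 and -1.07, that of the mitochondrial ribosome -0.21, -0.84 and -0.44, and that of the cytosolic ribosome 0.85, 0.13 and 0.31 in the large, medium and small chip. The pericentral list was at -1.60, -0.84 and 0.99 and so did not share a direction.

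The level of a gene bore on how it appeared. Genes with a mean of 10 to 30 ppm were above 0 in a median of 5 of 16 high cells and 59 of 64 low cells, and 33.4% of them were lower by means. Genes at 1000 ppm or more were above 0 in a median of 16 of 16 and 64 of 64 cells, and 13.7% were lower. The median pair share went from 20.7% in the lowest to 37.8% in the highest class. The filter and these classes both used the mean of both groups. A gene near 0 in the high cells was thus kept and placed by its low cells. This trend is therefore partly set by that rule and is a description only. The share of genes lower in at least 90% of pairs also went with transcript length, from 18% of the quintile of shortest transcripts (371 to 1548 bases, longest transcript of each gene) to 4.42% of the quintile of longest, while the median mean level went from 50.7 to 24.7 ppm. The median log2 ratio had no such trend (-0.35 in the shortest and -0.57 in the longest quintile). By GC content of the transcript, 38.3% of the lowest quintile were lower by means and 17.7% of the highest, with median log2 ratios of -0.80 and 0.01. These medians were -0.32 and -0.20 in medium-chip cells, and -0.53 and -0.56 in small-chip cells. The relative levels of the 92 spike-ins had a Pearson r of 0.98 between the groups, and 40 to 50 of them were above 0 in the high cells against 37 to 48 in the low cells.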

How the data were processed

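Single-cell RNA-seq values of 149 cells from 1 mouse were used, of which 80 large-chip cells form the comparison and 30 medium-chip and 39 small-chip cells a second look at the same split. The authors deposited 1 table of normalised expected counts per gene and cell, treated here as a signal that is never negative. Per the submitters' processing notes, CASAVA 1.8.2, Bowtie 0.12.9, RSEM 1.2.3 and the build mm10 (GRCm38) were used; the normalisation is not given in the sources used here, and the deposited table's name mentions SCnorm and WaveCrest. The values are not whole counts, so depth and counting error are unknown and no count model was run. All columns were matched to labelled cells, none was left out, and no 2 were identical.

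The spike-in share is the sum of the ERCC rows over the column sum. Each cell was rescaled to 1000000 over the mouse genes. Genes with a mean of both group means of at least 10 ppm (parts per 1000000) were kept (4438 of 20308). The log2 ratio of group means had a pseudocount of 10 ppm, so it understates the change of low genes. A gene was counted at 2-fold or more, also without the top cell of the higher group. The pair share is the percent of the 16 by 64 pairs of cells in which the high cell has the larger value, with ties shared equally between the groups. Cells of the same animal do not replicate a condition, so nothing was tested. No doublet caller was run.

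The members, lists and rules were chosen with earlier results of these data known, and the pair share and some named genes (those of the intermediate cells, of the spike-in scale and those higher by medians) were chosen after their values were seen. Otherwise genes were named as the 20 with the largest ratio per direction at a mean of 50 ppm or more, up to 4 per list, the 10 largest in the high cells and the zonation landmarks; the text quotes the leading ones. Malat1 and Neat1 were not analysed here. Of 20308 table symbols, 19325 matched GENCODE or RefSeq by symbol and 881 by an older symbol. Lengths and GC, from the longest transcript, covered 99.5% of tested genes. The ratio was tested on simulated data. Alternatives covered the pseudocount, the filter, the scaling, the summary of a group, the split and the cells left out. Sequences were aligned with biopython 1.88, figures drawn with matplotlib 3.10.9, and values computed with pandas 2.3.3, numpy 2.4.6 and scipy 1.17.1 under Python 3.11.15.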

Additional observations from a re-analysis of the deposited data

How the results depend on the processing

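The counts moved with most choices. Against 60 genes higher and 1241 lower by at least 2-fold of means, a pseudocount of 1 ppm gave 95 higher and one of 100 gave 11 higher and 98 lower, and a filter of 50 ppm gave 328 lower. Scaling by the median of ratios gave 382 and 612, by ribosomal protein genes 14 higher, and no rescaling 6 higher. The mean of log2 values gave 17 and 2080, medians 23 and 2892, pooled sums 614 higher, and 90% of pairs 2 and 449. A split at 30% gave 109 and 749, a split at 80% 26 and 2346, and 50% or more against under 10% 94 higher. Range 1 of the description number gave 1871 lower and range 2 94 higher.

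List medians are given relative to all genes on the log2 scale. By the median of ratios they moved to 1.32 (plasma proteins), 0.85 (oxidative and metal stress), 1.43 (periportal; 0.48 by the plain sum) and 1.04 (major urinary proteins). By medians, 3 reversed: complement (0.93 to -0.024), pericentral (-1.60 to 1.24) and cytosolic ribosome (0.85 to -0.43). The pericentral list itself was at -0.085 by medians, so its reversal was only relative to all genes. Translocation moved to -0.92, major urinary proteins to 0.90, oxidative phosphorylation to -1.16 and proteasome to -1.09. By the mean of log2 values the cytosolic ribosome reversed to -0.22, and translocation moved to -0.66, pericentral to -0.024, oxidative phosphorylation to -0.72 and proteasome to -0.80. The pericentral list was at -0.77 with a pseudocount of 100 and -2.54 with the filter of 50, which put the mitochondrial ribosome at 0.33. Within range 1, glutathione transferases were at -0.17 and major urinary proteins at 0.72. The split at 80% put major urinary proteins at 0.81 and proteasome at -0.72.

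Among called genes, medians reversed Mup17 (4.32), Cyp2e1 (0.55), Cyp2c29 (1.74), Oat (0.064), Tnks2 (-0.78), Cript (-1.50) and Rer1 (-2.27), the mean of log2 values reversed Mup17 (1.58), Cript (-0.25) and Rer1 (-0.37), and the split at 80% reversed Gnmt (-0.35), Tnks2 (-3.05) and Cript (-3.90). With the median transcript length, 13% of the shortest quintile were lower in at least 90% of pairs, against 18% with the longest. The causes of these moves were not tested. Gm20594 ran from 3.02 to 5.72 and Lars2 from 1.67 to 4.14 over the scalings. Leaving out cells with a summed value over 2 times the chip median was not run, since it leaves 0 high cells. No paired analysis was possible because the chips share cell numbers only as names and no test was run. The unknown depth limits what values of 0 show, and 1 mouse limits all differences to these cells.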
